A study of Mus musculus with 6 samples.

Results

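The interleukin and interleukin receptor genes comprised every gene whose symbol in the deposited tables began with Il followed by a digit. They numbered 82 of the 39174 genes listed and lay on 18 chromosomes of the mouse genome GRCm38. By role, 40 encode interleukins, their antagonists or interleukin-binding proteins, 41 encode receptor chains and 1, Il4i1, encodes a secreted amino acid oxidase named for its induction by IL-4. The soluble binding protein Il22ra2 was counted with the receptors, and Il18bp with the ligands and antagonists. RNA was extracted from whole sciatic nerves of 12-month-old mice, 3 of them wild-type (numbered 2, 4 and 5) and 3 Plekhg5-deficient (Plekhg5-/-, numbered 2, 3 and 5), and 1 library was sequenced per nerve. The nerves received no treatment. The sources used here do not give the sex, the strain background or how the Plekhg5 allele was disrupted. Nothing in the labels says more about the replicates than their numbers, so the p-values measure the spread between these nerves.

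Interleukins are secreted signals by which immune, stromal and glial cells address each other. Most bind receptors built from a private chain and a shared chain: the common gamma chain Il2rg serves the receptors for IL-2, IL-4, IL-7, IL-9, IL-15 and IL-21, gp130 (Il6st) serves those for IL-6 and IL-11, and Il1rap serves those for IL-1 and IL-33. Receptors of the gamma chain and gp130 groups signal through Jak kinases and Stat factors, whereas IL-1 and IL-17 receptors recruit adaptors that lead to NF-κB. In peripheral nerve, interleukins are best known from injury, when Schwann cells, macrophages and arriving leukocytes produce them.

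Plekhg5 has been described as an activator of NF-κB, so the promoters of the interleukin genes were searched for a binding motif of this factor. Of the 82 genes, 65 were found in the RefSeq promoter table of GRCm38.p6, with 80 start sites. The letters GGANTTTCC, on either strand, stood within 250 bases before the start in 5 of these 80 windows (6.25%) and in 350 of all 32851 windows of this length (1.07%). The windows were those of Il6, Il16, Il18rap, Il1rl2 and Il13. The letters had been shortened by 1 base after longer forms were searched, so these shares describe a motif settled after looking and test nothing. The 3 in which the match lay nearest to the start are printed 5′ to 3′ from RefSeq with the match in capitals: Il6, the acute-phase cytokine, from the plus strand at chr5:30012864-30013113, an internal start of Il16, a ligand of CD4, from the minus strand at chr7:83655496-83655745, and Il18rap, a chain of the IL-18 receptor, from the plus strand at chr1:40515112-40515361.
Il6: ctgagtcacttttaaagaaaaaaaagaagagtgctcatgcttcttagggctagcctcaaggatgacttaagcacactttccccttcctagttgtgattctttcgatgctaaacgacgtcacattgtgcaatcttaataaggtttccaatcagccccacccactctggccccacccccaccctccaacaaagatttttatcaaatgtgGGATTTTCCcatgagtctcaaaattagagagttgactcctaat
Il16: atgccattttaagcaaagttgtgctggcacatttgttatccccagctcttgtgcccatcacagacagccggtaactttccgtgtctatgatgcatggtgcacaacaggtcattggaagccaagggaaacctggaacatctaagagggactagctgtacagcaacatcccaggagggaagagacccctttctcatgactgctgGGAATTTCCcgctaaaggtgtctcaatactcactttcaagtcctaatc
Il18rap: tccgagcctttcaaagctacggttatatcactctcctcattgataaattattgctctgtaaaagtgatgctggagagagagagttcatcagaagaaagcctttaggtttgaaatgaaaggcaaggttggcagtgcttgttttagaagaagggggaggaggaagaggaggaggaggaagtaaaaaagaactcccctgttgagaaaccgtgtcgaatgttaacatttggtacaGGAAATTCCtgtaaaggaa
The match began 43 bases before the start of Il6, 48 bases before that of Il16 and 19 bases before that of Il18rap. For comparison, the windows of a gene measured lower and a gene measured higher in Plekhg5-/- nerves are shown, both with an unadjusted p under 0.05 between genotypes. They belong to Il4ra, the IL-4 receptor alpha chain, on the plus strand at chr7:125552021-125552270, and to Il1rap, the shared IL-1 receptor chain, on the plus strand at chr16:26581455-26581704. Neither window held the NF-κB letters.
Il4ra: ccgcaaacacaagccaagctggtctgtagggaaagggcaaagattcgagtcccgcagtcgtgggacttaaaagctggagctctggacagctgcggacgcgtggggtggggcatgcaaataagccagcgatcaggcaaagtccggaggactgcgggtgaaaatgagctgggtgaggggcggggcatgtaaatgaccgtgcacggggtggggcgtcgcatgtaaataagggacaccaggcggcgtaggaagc
Il1rap: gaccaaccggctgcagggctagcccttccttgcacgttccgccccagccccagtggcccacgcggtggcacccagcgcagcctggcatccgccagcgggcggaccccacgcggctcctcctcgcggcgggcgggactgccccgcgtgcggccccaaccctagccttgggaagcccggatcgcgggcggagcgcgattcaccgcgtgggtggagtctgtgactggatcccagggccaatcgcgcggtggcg
The letters TTCNNNGAA, bound by Stat factors, stood in 8 of the 80 windows and in 7.02% of all windows. The letters GAAANNGAA of the interferon-stimulated response element stood in 4 of the 80 and in 7.13% of all. No match of these 3 motifs overlapped another in the windows printed. A match describes letters and not a site in use.

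Plekhg5 itself was measured at 3.65, 4.13 and 5.26 FPKM across wild-type nerves 2, 4 and 5. Plekhg5-/- nerves 2, 3 and 5 gave 0.141, 0.140 and 0.0521 FPKM. FPKM here are fragments relative to transcript length and to the size of the library, divided by a scaling factor per library. Its log2 fold change, on the scale log2(FPKM + 1) used throughout, fell by 2.26 (SE 0.18, adjusted p = 0.0380, limma). All 10 Schwann cell markers were above 0 in every nerve, and their summed level was between 10896 and 19689 FPKM. The nerves numbered 5 stood apart from the rest. In wild-type nerve 5 the summed level of 12 T-cell markers was 145.6 FPKM, against 2.88 to 10.6 FPKM in the other nerves, and that of 10 B-cell markers was 142.2 FPKM, against 2.86 to 7.32 FPKM. All 12 and all 10 were at least 2-fold higher there than in every other nerve, and of them only Cd8b1 was at 0 in a library, Plekhg5-/- nerve 2. Markers of dendritic cells and lymph node stroma (9 genes) summed to 405 FPKM in wild-type nerve 5, 213 FPKM in Plekhg5-/- nerve 5 and 66.3 to 82.1 FPKM in the others, with Madcam1 at 0 in 4 nerves and Glycam1 at 0 in 2. Plekhg5-/- nerve 5 had the highest sums of 8 neutrophil markers (680 against 92.1 to 140 FPKM), 7 erythroid markers (229924 against 3975 to 24292 FPKM) and 11 muscle markers (37443 against 211 to 13931 FPKM). Macrophage markers (10 genes) summed to 591 and 667 FPKM in the nerves numbered 5 and to 259 to 333 FPKM in the others. In whole nerve, fewer cells of a type and less RNA per cell cannot be told apart.

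Of the 82 genes, 62 averaged 0.1 FPKM or more for one of the genotypes and were tested, 23 of the 40 ligands and antagonists, 38 of the 41 receptors and Il4i1. Of the other 20, 11 were listed at 0 in all 6 nerves: Il3, Il17a, Il19, Il20, Il24, Il31, Il1f5, Il1f6, Il1f8, Il1f10 and the receptor Il22ra1. The remaining 9, Il9, Il12b, Il13, Il17c, Il20ra, Il21, Il22, Il23a and Il1rapl2, did not exceed 0.235 FPKM in any nerve. At the other end, 21 genes averaged 3 FPKM or more for one of the genotypes and 6 averaged 10 FPKM or more for both: Il33, Il6st, Il34, Il11ra1, Il10rb and Il16.

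**Figure D1:**
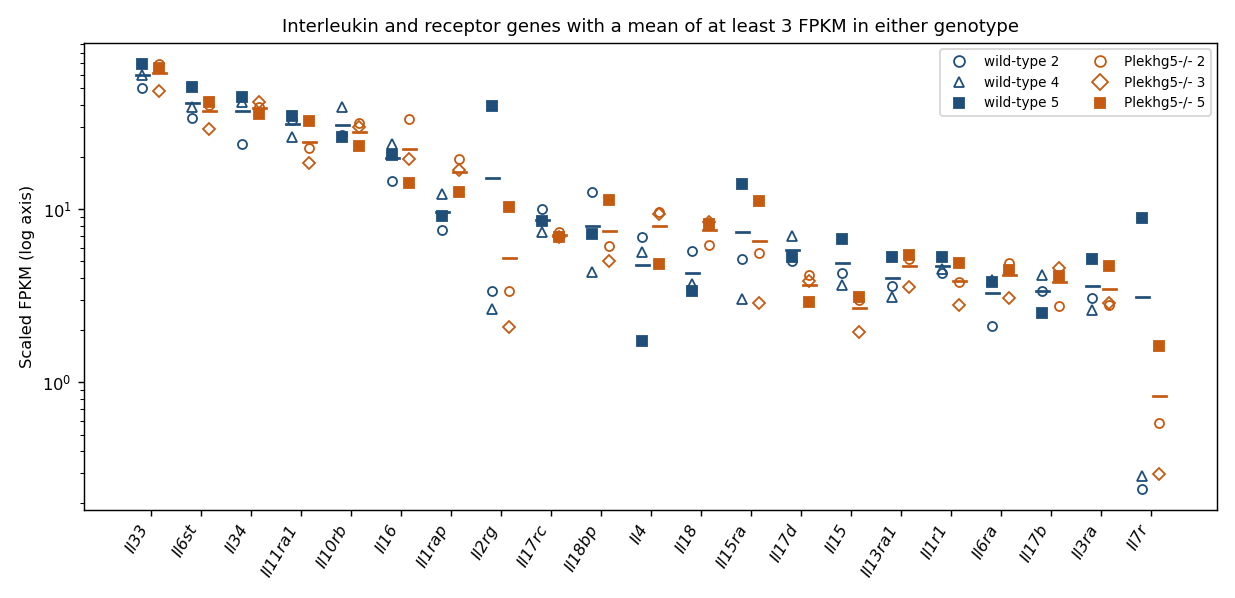
Scaled FPKM (log axis) of the 21 genes that averaged 3 FPKM or more for one of the genotypes, with 1 point per nerve, blue for wild-type and orange for Plekhg5-/-, and a short line at the mean of 3 nerves. Filled squares are the nerves numbered 5, and the genotypes overlap for most genes, while Il2rg and Il7r spread widest through wild-type nerve 5.

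None of the 62 genes passed an adjusted p of 0.05 (limma, smallest adjusted p = 0.860), where 0.0376% of all 21285 genes tested did, 0.00940% lower and 0.0282% higher in Plekhg5-/- nerves. At an unadjusted p under 0.05 there were 5 genes, or 8.06%, against 5.11% of all genes. Lower in Plekhg5-/- nerves were Il4ra, Il17d and Il15, against a background of 2.69%, and higher were Il18 and Il1rap, against 2.41%. The genotypes did not overlap for 11 genes (17.7%, against 11.6% of all genes). Of these, 8 were lower in Plekhg5-/- nerves (5.88% of all genes were) and 3 were higher (5.69%). With the FPKM as deposited, without scaling, the calls at an unadjusted p under 0.05 were 4 lower and 0 higher, and neither Il18 nor Il1rap was among them. With 3 nerves against 3, an exact permutation test of a single gene cannot give a p below 0.1. The median log2 fold change of the 62 genes was -0.098 and that of all genes tested was 0.0065. Below 0 lay 40 of the 62, against 10417 of all 21285 genes tested. The members' median was 0.058 when wild-type nerve 5 was left out (56 genes tested).

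Il4ra, which pairs with Il2rg or Il13ra1 to bind IL-4 and IL-13, had the smallest p of the 62 genes. Its level was 2.13, 1.72 and 2.54 FPKM across wild-type nerves 2, 4 and 5 and 0.864, 0.689 and 1.41 FPKM across Plekhg5-/- nerves 2, 3 and 5. Every wild-type nerve was above every Plekhg5-/- nerve, although wild-type nerve 4 and Plekhg5-/- nerve 5 lay close together. The mean was 2.15-fold lower in Plekhg5-/- nerves (0.989 ± 0.378, SD, n = 3) than in wild-type nerves (2.13 ± 0.409, SD, n = 3). The log2 fold change was -0.66 (SE 0.21, adjusted p = 0.860, limma), which does not pass the threshold, and -0.57 without wild-type nerve 5. The 95% intervals that the authors deposited for Il4ra were as wide as counts of 142 to 271 fragments in wild-type and 76.0 to 98.5 fragments in Plekhg5-/- nerves would give. Of its 6002 exon bases in GENCODE M21, 571 overlap Gm44876 on the opposite strand. Il21r, the next gene downstream, begins 23956 bases beyond its end on chromosome 7.

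Il15, a cytokine that maintains natural killer and memory T-cells, was measured at 4.26, 3.65 and 6.73 FPKM across wild-type nerves 2, 4 and 5. In Plekhg5-/- nerves 2, 3 and 5 it was at 2.99, 1.95 and 3.12 FPKM. The groups did not overlap. The Plekhg5-/- mean was 1.82-fold lower (log2 fold change -0.65, SE 0.27, adjusted p = 0.972, limma). Without wild-type nerve 5, the highest of the 6, the log2 fold change was -0.44.

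Il17d, a member of the IL-17 family found in non-immune tissues, was at 5.06, 7.04 and 5.30 FPKM across wild-type nerves 2, 4 and 5. It was at 4.16, 3.86 and 2.92 FPKM across Plekhg5-/- nerves 2, 3 and 5, below every wild-type nerve. The mean was 1.59-fold lower (5.80 ± 1.08 against 3.65 ± 0.649 FPKM, SD, n = 3 each), with a log2 fold change of -0.55 (SE 0.21, adjusted p = 0.969, limma). The highest nerve for Il17d was wild-type nerve 4 and not wild-type nerve 5, and the log2 fold change was -0.60 without the latter.

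Il18, an IL-1 family cytokine that caspase-1 activates, was among the higher genes. Its level was 5.73, 3.72 and 3.37 FPKM across wild-type nerves 2, 4 and 5 and 6.19, 8.45 and 8.18 FPKM across Plekhg5-/- nerves 2, 3 and 5. The gap between the groups was narrow, between wild-type nerve 2 and Plekhg5-/- nerve 2. The mean was 1.78-fold higher in Plekhg5-/- nerves (7.61 ± 1.24 against 4.28 ± 1.27 FPKM, SD, n = 3 each) and the log2 fold change was 0.72 (SE 0.24, adjusted p = 0.896, limma). The deposited locus of Il18 began at position 50575273 of chromosome 9, within the gene of GENCODE M21, which begins at 50554827. Its soluble inhibitor Il18bp was at 12.6, 4.36 and 7.22 FPKM across wild-type nerves 2, 4 and 5 and 6.13, 5.04 and 11.4 FPKM across Plekhg5-/- nerves 2, 3 and 5, so the groups overlapped fully (log2 fold change -0.06, SE 0.42). Both chains of the IL-18 receptor, Il18r1 and Il18rap, were highest in wild-type nerve 5, at 1.17 and 0.932 FPKM, and Il18r1 did not exceed 0.120 FPKM elsewhere.

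Il1rap was at 7.58, 12.2 and 9.15 FPKM across wild-type nerves 2, 4 and 5. It was at 19.6, 16.9 and 12.6 FPKM across Plekhg5-/- nerves 2, 3 and 5. Wild-type nerve 4 and Plekhg5-/- nerve 5 were almost level, and the mean was 1.70-fold higher in Plekhg5-/- nerves (16.4 ± 3.51 against 9.66 ± 2.38 FPKM, SD, n = 3 each). The log2 fold change was 0.71 (SE 0.24, adjusted p = 0.923, limma) and 0.68 without wild-type nerve 5. The directions of Il4ra, Il15, Il17d, Il18 and Il1rap were the same in the 16 other settings tried.

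**Figure D2:**
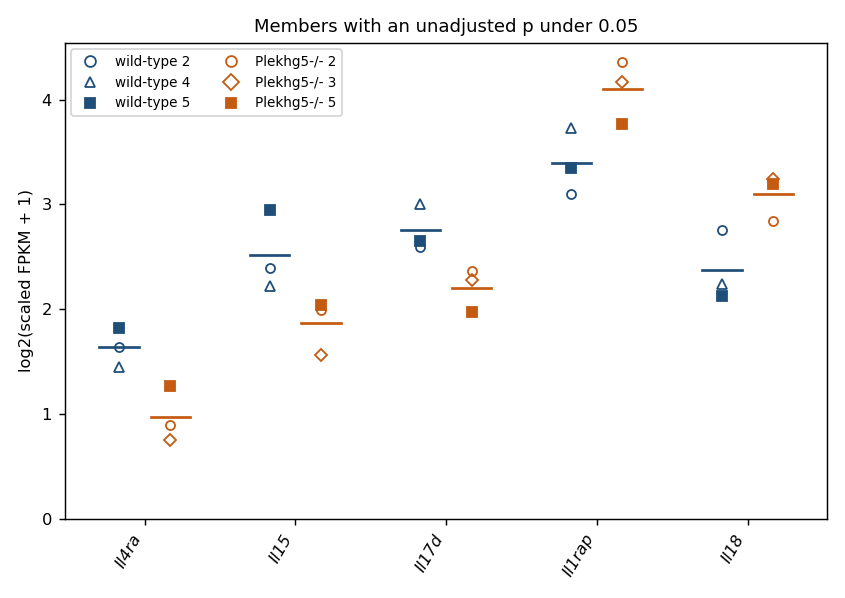
Log2(scaled FPKM + 1) of the 5 genes with an unadjusted p under 0.05, with 1 point per nerve and a line at the mean of the 3 nerves of each genotype (blue, wild-type; orange, Plekhg5-/-). Il4ra, Il15 and Il17d lie lower and Il1rap and Il18 higher in Plekhg5-/- nerves, with narrow gaps between the groups.

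The other IL-1 family genes overlapped between genotypes. Il33, an alarmin held in the nucleus of stromal cells, had the highest level of the 82 genes. It was at 50.1, 59.9 and 68.7 FPKM across wild-type nerves 2, 4 and 5 and 69.1, 48.3 and 65.6 FPKM across Plekhg5-/- nerves 2, 3 and 5 (log2 fold change 0.03, SE 0.21, adjusted p = 0.999, limma). Its receptor Il1rl1 was between 0.575 and 1.29 FPKM in all 6 nerves. Il1r1, the signalling IL-1 receptor, was at 4.29 to 5.33 FPKM in wild-type and 2.80 to 4.87 FPKM across Plekhg5-/- nerves. The inflammatory members were low and were picked out after their values had been seen, except Il1rn. Il1b reached 1.77 FPKM in Plekhg5-/- nerve 5 and 0.898 FPKM in wild-type nerve 5 and stayed between 0.171 and 0.380 FPKM in the other nerves. The IL-1 receptor antagonist Il1rn was at 0.374, 0.503 and 0.721 FPKM across wild-type nerves 2, 4 and 5 and 0.0568, 0.581 and 1.79 FPKM across Plekhg5-/- nerves 2, 3 and 5, the sole member at least 2-fold higher in Plekhg5-/- nerve 5 than in every other nerve. The decoy receptor Il1r2 was likewise highest in Plekhg5-/- nerve 5, at 1.79 FPKM, followed by 1.43 FPKM in wild-type nerve 5. These 3 genes were thus highest in Plekhg5-/- nerve 5, which had the highest sums of neutrophil, macrophage, erythroid, muscle and adipocyte markers. A link with any of these cells was not tested.

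All 12 receptors of the common gamma chain, IL-13, IL-3 and IL-5 group were tested, and their median log2 fold change was -0.36. Below 0 lay 11 of them, against 10417 of all 21285 genes tested. In 11 of the 12 the highest nerve was wild-type nerve 5, against 21.1% of all genes. Il5ra, Il9r and Il13ra2 reached the 0.1 FPKM minimum only through that nerve, so their part in these counts and the median rests on it. Without wild-type nerve 5, 9 of the 12 were still tested and their median was 0.18. Without both nerves numbered 5 it was -0.12. Il2rg was at 3.36, 2.65 and 39.5 FPKM across wild-type nerves 2, 4 and 5 and 3.37, 2.08 and 10.3 FPKM across Plekhg5-/- nerves 2, 3 and 5. Wild-type nerve 5 was 3.84-fold above the next, Plekhg5-/- nerve 5, and the remaining 4 nerves of both genotypes lay together. The log2 fold change of Il2rg was -0.69 with all nerves (SE 0.98, adjusted p = 0.980, limma) and 0.42 without wild-type nerve 5. Of its 2387 exon bases, 728 are shared with Gm20489 on the same strand.

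The IL-7 receptor chain Il7r, carried by T-cells, had the same order. It was at 0.244, 0.290 and 8.86 FPKM across wild-type nerves 2, 4 and 5 and 0.580, 0.297 and 1.63 FPKM across Plekhg5-/- nerves 2, 3 and 5. Its log2 fold change was -0.52 (SE 0.81) with all nerves and 0.47 without wild-type nerve 5. The IL-2 receptor chains Il2ra and Il2rb kept a direction when this nerve was left out. Il2ra was at 0.503, 0.644 and 2.10 FPKM across wild-type nerves 2, 4 and 5 and 0.357, 0.186 and 0.279 FPKM across Plekhg5-/- nerves 2, 3 and 5. Il2rb was at 0.554, 0.281 and 3.93 FPKM across wild-type nerves and 0.154, 0.280 and 0.243 FPKM across Plekhg5-/- nerves in the same order. The groups of both genes did not overlap, for Il2rb by the margin between 0.281 and 0.280 FPKM. Il21r, the IL-21 receptor, was at 0.375, 0.423 and 2.69 FPKM across wild-type nerves 2, 4 and 5 and 0.151, 0.149 and 0.195 FPKM across Plekhg5-/- nerves 2, 3 and 5, without overlap. The log2 fold changes of Il2ra, Il2rb and Il21r were -0.63, -0.81 and -0.73 with all nerves and -0.31, -0.20 and -0.26 without wild-type nerve 5. These 3 genes were near the floor in Plekhg5-/- nerves. Their intervals there were as wide as counts of 6.48 to 10.5, 5.58 to 12.1 and 7.0 to 9.0 fragments would give, in the same order.

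Not every chain of this group followed that nerve alone. Il15ra, which presents IL-15, was high in both nerves numbered 5, at 14.0 FPKM in wild-type and 11.1 FPKM in Plekhg5-/-, and between 2.89 and 5.599 FPKM in the other 4. Il3ra, the IL-3 receptor alpha chain, was at 5.16 and 4.69 FPKM in the nerves numbered 5 of the wild-type and Plekhg5-/- groups and at 2.625 to 3.08 FPKM in the others. Il13ra1, the partner of Il4ra in the IL-13 receptor, was at 3.13 to 5.28 FPKM in wild-type and 3.56 to 5.42 FPKM across Plekhg5-/- nerves and was the single receptor of the group with a log2 fold change above 0 (0.20, SE 0.25).

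Of the 5 ligands of this group that were tested, 1, Il15, was highest in wild-type nerve 5. Il4 was at 6.93, 5.69 and 1.75 FPKM across wild-type nerves 2, 4 and 5 and 9.70, 9.44 and 4.84 FPKM across Plekhg5-/- nerves 2, 3 and 5. It was lowest in both genotypes in the nerve numbered 5, and lowest of all in wild-type nerve 5, which had the highest T-cell marker sum. T-helper cells and mast cells are known sources of IL-4, and the sum of 7 mast cell markers was also highest in that nerve, at 278 FPKM against 76.3 to 165 FPKM. A link of Il4 with either cell type was not tested. In wild-type nerve 5 the interval of Il4 was as wide as a count of 7.99 fragments would give, against 31.4 to 107 in the others. The log2 fold change was 0.72 (SE 0.46, adjusted p = 0.974, limma) and 0.25 without wild-type nerve 5. Il2, the T-cell growth factor, was at 1.84, 1.55 and 1.43 FPKM across wild-type nerves 2, 4 and 5 and 2.34, 2.14 and 1.87 FPKM across Plekhg5-/- nerves 2, 3 and 5. It was higher in Plekhg5-/- nerves without overlap (log2 fold change 0.26, SE 0.17), and its lowest value was again in wild-type nerve 5. The intervals of Il2 were as wide as counts of 18.0 to 55.5 fragments would give.

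**Figure D3:**
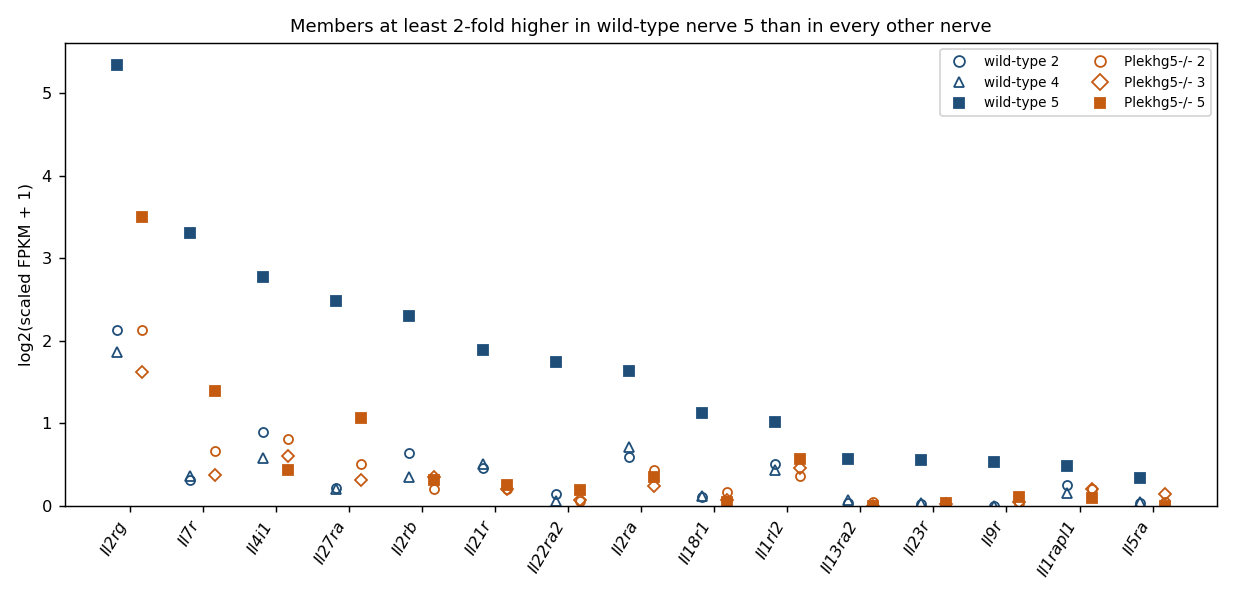
Log2(scaled FPKM + 1) of the 15 genes whose level in wild-type nerve 5 (filled blue square) was 2-fold or more above every other nerve, with 1 point per nerve (blue, wild-type; orange, Plekhg5-/-). The other wild-type nerves lie with the Plekhg5-/- nerves for most of these genes. Plekhg5-/- nerve 5 is second for Il2rg, Il7r and Il27ra, and at low levels for Il1rl2, Il22ra2, Il9r and Il23r.

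Over all members, wild-type nerve 5 was the highest nerve for 29 of the 62 genes (46.8%), against 21.1% of all genes tested. It exceeded every other nerve at least 2-fold for 15 of them (24.2%), against 3.94% of all genes. These 15 were Il4i1 and 14 genes counted as receptors, the soluble binding protein Il22ra2 among them, and none of the 23 ligands and antagonists. In the common gamma chain group they were Il2ra, Il2rb, Il2rg, Il5ra, Il7r, Il9r, Il13ra2 and Il21r. From the IL-1 family they included Il18r1, Il1rl2 and Il1rapl1, and from the other families Il23r, Il27ra and Il22ra2. Of these 15, Il5ra, Il9r, Il13ra2, Il18r1, Il23r and Il22ra2 reached the 0.1 FPKM minimum only through wild-type nerve 5. Without that nerve 56 members were tested, and those genes were not among them. Their place in both counts therefore rests on the nerve in which they were high. Plekhg5-/- nerve 5 was highest for 10 members (16.1%, against 22.6% of all genes). By at least 2-fold, Plekhg5-/- nerve 5 was highest for Il1rn alone (3.90% of all genes), wild-type nerve 2 for Il12rb1 alone (1.27%) and Plekhg5-/- nerve 2 for Il17f alone (0.930%). The part of the T-cell and B-cell markers in the levels of these receptors was not tested.

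**Figure D4:**
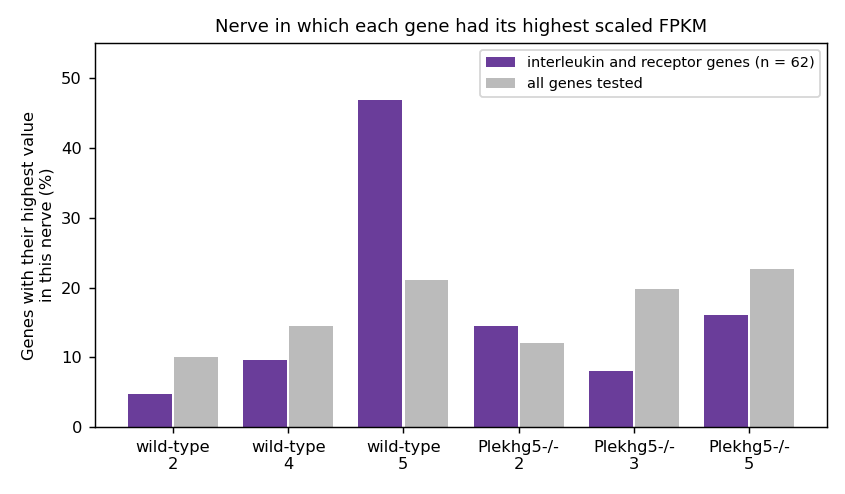
Percentage of genes that had their highest scaled FPKM in each of the 6 nerves, for the 62 interleukin and receptor genes (purple) and for all 21285 genes tested (grey). Wild-type nerve 5 holds 46.8% of the members and 21.1% of all genes.

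Among the receptors of the gp130 and IL-12 group, 7 of 9 had a log2 fold change below 0. Among these was Il23r, which reached the 0.1 FPKM minimum only through wild-type nerve 5. Il6st, the shared gp130 chain, was at 33.7, 39.1 and 51.1 FPKM across wild-type nerves 2, 4 and 5 and 40.1, 29.0 and 41.6 FPKM across Plekhg5-/- nerves 2, 3 and 5. The groups overlapped (log2 fold change -0.16, SE 0.23, adjusted p = 0.980, limma). Il11ra1, the IL-11 receptor, was at 32.7, 26.1 and 34.4 FPKM across wild-type nerves and 22.5, 18.5 and 32.5 FPKM across Plekhg5-/- nerves in the same order (log2 fold change -0.36, SE 0.24). Its paralogue Il11ra2 was at 1.04, 0.975 and 1.74 FPKM across wild-type nerves and 0.795, 0.753 and 0.828 FPKM across Plekhg5-/- nerves, without overlap (log2 fold change -0.31, SE 0.18). The paralogues are nearly identical in sequence, so the division of fragments between them is uncertain. Il6ra, the private IL-6 receptor chain, was at 2.10 to 3.89 FPKM in wild-type and 3.08 to 4.88 FPKM across Plekhg5-/- nerves. On this scale, which is per length of transcript, the receptors were well above their ligands. Il6 did not exceed 0.419 FPKM and Il11 did not exceed 0.577 FPKM in any nerve, and both were singled out after their values had been seen. Il6, whose promoter holds the NF-κB letters shown earlier, was at 0.144, 0 and 0.419 FPKM across wild-type nerves and 0.156, 0.398 and 0.0669 FPKM across Plekhg5-/- nerves, with a log2 fold change of 0.03 (SE 0.17).

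Il27ra, a chain of the IL-27 receptor, and Il12rb1 each stood highest in a single nerve. Il27ra reached 4.56 FPKM in wild-type nerve 5, 1.09 FPKM in Plekhg5-/- nerve 5 and 0.153 to 0.425 FPKM in the others. Its log2 fold change was -0.33 (SE 0.62) with all nerves and 0.42 without wild-type nerve 5. Il12rb1, shared by the receptors for IL-12 and IL-23, reached 1.18 FPKM in wild-type nerve 2, 0.381 FPKM in wild-type nerve 5 and no more than 0.0589 FPKM in the other 4.

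In the IL-10 family, Il10rb, a chain shared by the receptors for IL-10, IL-22 and the type III interferons, was at 26.8, 38.8 and 26.0 FPKM across wild-type nerves 2, 4 and 5. In Plekhg5-/- nerves 2, 3 and 5 it was at 31.3, 30.0 and 23.1 FPKM, overlapping the wild-type nerves (log2 fold change -0.10, SE 0.22, adjusted p = 0.986, limma). Of its 3808 exon bases, 569 are shared with Gm21970 on the same strand. Il22ra2, the soluble IL-22 binding protein, reached 2.33 FPKM in wild-type nerve 5 but 0.0452 to 0.146 FPKM in the other 5 nerves. Il10 itself did not exceed 0.388 FPKM.

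The IL-17 family was represented by its receptors rather than by its lymphocyte-derived ligands. Il17a was listed at 0 in all nerves, and Il17f did not exceed 0.289 FPKM, in Plekhg5-/- nerve 2. Of the 5 receptors, 4 had a log2 fold change below 0. Il17rc was at 10.1, 7.37 and 8.61 FPKM across wild-type nerves 2, 4 and 5 and 7.37, 6.91 and 6.89 FPKM across Plekhg5-/- nerves 2, 3 and 5. Il17re, which binds IL-17C together with Il17ra and lies 675 bases before Il17rc on chromosome 6, was at 1.77, 2.27 and 2.17 FPKM across wild-type nerves and 1.46, 1.20 and 1.595 FPKM across Plekhg5-/- nerves. The groups of Il17re did not overlap (log2 fold change -0.34, SE 0.17, adjusted p = 0.974, limma). Il17b was at 2.502 to 4.20 FPKM in wild-type and 2.77 to 4.57 FPKM across Plekhg5-/- nerves.

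Of the members outside these families, Il34, a ligand of the macrophage receptor Csf1r, was at 24.0, 41.7 and 44.8 FPKM across wild-type nerves 2, 4 and 5 and 38.8, 41.6 and 35.3 FPKM across Plekhg5-/- nerves 2, 3 and 5 (log2 fold change 0.11, SE 0.26, adjusted p = 0.988, limma). Il16 was at 14.5, 23.9 and 20.7 FPKM across wild-type nerves and 33.3, 19.5 and 14.2 FPKM across Plekhg5-/- nerves (log2 fold change 0.12, SE 0.34, adjusted p = 0.993, limma). The genes with the NF-κB letters in their promoters overlapped between genotypes, Il6, Il16, Il18rap and Il1rl2 alike, and Il13 was too low to test. Most genes overlapped, since 11.6% of all genes tested did not, and a link with the letters was not tested. The intervals of Il6 and Il18rap were as wide as counts of at most 9.59 and 19.4 fragments would give. Il4i1 reached 5.84 FPKM in wild-type nerve 5 but 0.355 to 0.860 FPKM in the other nerves. Its exons overlap those of Tbc1d17, Nup62 and Atf5 in 3602 of 4080 bases, so its level is uncertain.

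**Figure D5:**
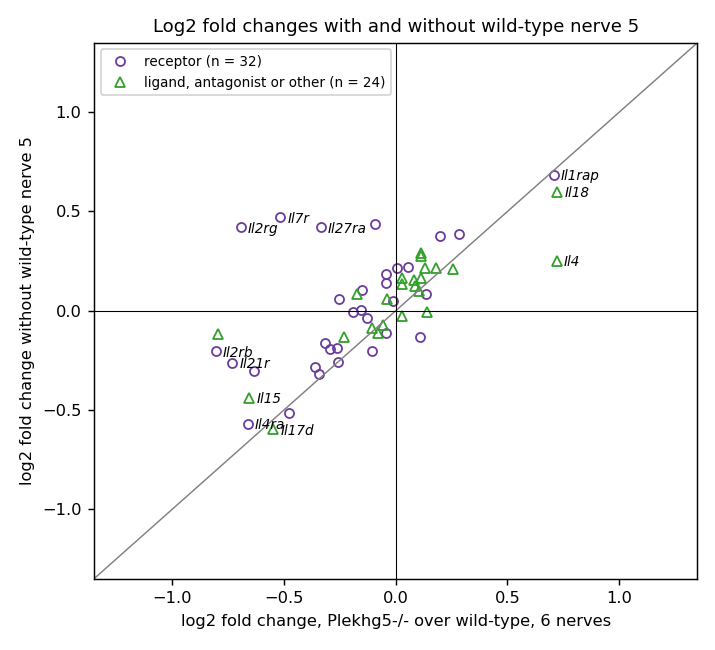
Log2 fold changes (Plekhg5-/- over wild-type) of the 56 genes tested in both fits, with all 6 nerves on the x axis and without wild-type nerve 5 on the y axis, for receptors (circles) and other members (triangles), with the line of equality. Il2rg, Il7r and Il27ra change sign, whereas Il4ra, Il15, Il17d, Il18 and Il1rap stay on their side of 0.

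Receptors and ligands differed in their medians. The 38 receptors had a median log2 fold change of -0.19, with 31 below 0, where 10417 of all 21285 genes tested lay below 0. Il5ra, Il9r, Il13ra2, Il18r1, Il23r and Il22ra2 passed the 0.1 FPKM minimum only through wild-type nerve 5. Their place below 0 therefore rests on that nerve. Without it the receptor median was -0.0012 (32 genes). The 23 ligands and antagonists had a median of 0.083, with 15 above 0, and 0.13 without that nerve. On the scale log2(FPKM + 1), the median SE was 0.24 for the members and 0.22 for all genes. Single members lay far above it, such as Il2rg at 0.98. This scale makes the SE of low genes small, so the medians do not compare their spread.

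The further genes of interleukin signalling, partner cytokines and receptors, Jak kinases, Stat factors, Socs inhibitors, adaptors and IL-1 processing enzymes, numbered 49 and were all tested. None passed the adjusted threshold (limma), against 0.0376% of all genes tested. Of the 49, 3 (6.12%, against 5.11% of all genes tested) had an unadjusted p under 0.05, Osmr and Socs1 among them. Their median log2 fold change was -0.11, and 0.013 without wild-type nerve 5. Osmr, which joins gp130 to bind oncostatin M, was at 10.6, 10.98 and 9.92 FPKM across wild-type nerves 2, 4 and 5 and 15.9, 13.03 and 16.4 FPKM across Plekhg5-/- nerves 2, 3 and 5, without overlap (log2 fold change 0.48, SE 0.17, adjusted p = 0.923, limma). Socs1, a feedback inhibitor of Jak kinases, was at 4.93, 1.38 and 4.78 FPKM across wild-type nerves and 1.20, 0.745 and 0.655 FPKM across Plekhg5-/- nerves in the same order (log2 fold change -1.23, SE 0.38, adjusted p = 0.850, limma). Csf2, which encodes the cytokine GM-CSF, was listed at 0 in all Plekhg5-/- nerves, was below 0.001 FPKM in wild-type nerve 2, and was at 0.218 and 0.114 FPKM across wild-type nerves 4 and 5.

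The most abundant genes of the signalling lists overlapped between genotypes. The neurotrophic cytokine Cntf, made by Schwann cells, was the most abundant of the 49, at 460 to 873 FPKM in wild-type and 497 to 906 FPKM across Plekhg5-/- nerves. Cntfr, its receptor chain, was at 18.7 to 27.2 and 16.3 to 22.8 FPKM. Stat6, which carries the signal of Il4ra, was at 29.4 to 35.6 FPKM in wild-type and 27.8 to 33.8 FPKM across Plekhg5-/- nerves. Stat3, the main factor below gp130, was at 18.5 to 40.6 and 16.7 to 37.4 FPKM. Of the IL-1 receptor pathway, the adaptor Tab2 was at 50.1 to 75.0 FPKM in wild-type and 49.6 to 62.3 FPKM across Plekhg5-/- nerves. The kinase Irak1 was at 27.9 to 42.8 and 20.9 to 33.7 FPKM. Casp1, the protease that activates IL-1 beta and IL-18, was at 4.66 to 6.70 FPKM in wild-type and 4.52 to 6.70 FPKM across Plekhg5-/- nerves. The related protease Casp4 was at 5.92 to 14.8 and 5.44 to 9.15 FPKM, highest in wild-type nerve 5. Of the further Socs inhibitors, Socs2 was at 4.96 to 8.06 FPKM in wild-type and 6.64 to 10.5 FPKM across Plekhg5-/- nerves, and Socs3 at 3.37 to 6.07 and 2.61 to 4.48 FPKM.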

How the data were processed

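Whole sciatic nerves of 3 wild-type and 3 Plekhg5-/- mice were analysed, grouped by the sample titles. The authors extracted total RNA, prepared mRNA libraries, trimmed reads with Trim Galore 0.4.0 and Cutadapt 1.8 (9 nucleotides removed from the start), mapped them with STAR 2.5.0a to GRCm38 and estimated FPKM per gene with Cufflinks 2.2.1. The deposited values are FPKM with 95% intervals, 1 table per library, without counts. Read depth, strand setting and annotation release were not given in the sources used here. Fragment numbers in the text are those that intervals of the deposited width would give if counting error alone set it.

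Where an identifier stood in several rows (19 identifiers), its FPKM were added up. A gene was tested if its deposited FPKM averaged 0.1 or more for one of the genotypes (21285 genes). Values were scaled by median-of-ratios factors (0.745 to 1.12), and limma 3.58.1 (R 4.3.3) was run on log2(FPKM + 1), with a variance trend, genotype as its only term and Benjamini-Hochberg adjustment over all genes. The tests are two-sided. Fold changes on this scale understate those of low genes. An adjusted p under 0.05 counted as a call. Values in the text are scaled FPKM, with means and standard deviations over nerves. On simulated libraries of this design, 21247 genes were tested. The calls held 4 of 67 genes changed by 1 on the log2 scale, 36 of 67 changed by 2 and 50 of 66 changed by 3. There were 7 false calls. The changed genes were drawn from those averaging 1 FPKM or more and were first raised by 2 on that scale. With a minimum of 1 FPKM, 34 members were tested, so these shares can overstate what would be called among lower members.

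The members and the lists of roles, signalling genes and markers were chosen with earlier results of these data known. The text names Plekhg5, members with a mean of at least 3 FPKM, members without overlap between genotypes or with an unadjusted p under 0.05, members with a mean of at least 0.5 FPKM that were at least 2-fold higher in 1 nerve than in every other, signalling genes by the same tests or as the 2 highest of each list, and at most 2 genes of a marker list. Il1b, Il1r2, Il1rl1, Il6, Il10, Il11, Il17f, Il18r1, Il18rap, the members listed as absent or low and the other members counted with wild-type nerve 5 fall outside that rule, as do the markers named for a value of 0. A few signalling and marker genes covered by it are not reported here. Of the member identifiers, 82 of 82 were found in GENCODE M21 and 48 had the same coordinates there, so gene coordinates are those of the deposited tables, exon overlaps those of GENCODE M21, and promoters those of RefSeq. The motif letters were shortened by 1 base after longer forms had been searched. Exons of 23 members overlap other genes. The alternatives tried were upper quartile scaling or unscaled FPKM, pseudocounts of 0.1 and 0.5, no minimum or one of 1 FPKM, array weights, omitting the variance trend, a replicate block, leaving out each nerve in turn and leaving out both nerves numbered 5. Figures were drawn with matplotlib 3.10.9.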

Additional observations from a re-analysis of the deposited data

How the results depend on the processing

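No member passed an adjusted p of 0.05 in any of the 16 alternatives (limma). The number at an unadjusted p under 0.05 was 5 and ranged from 0 to 7 over the 16 alternatives. The 7 came with a pseudocount of 0.1, which added Il21r and Il2ra. When 1 nerve was left out, the number ranged from 0 to 5. It was 3 without wild-type nerve 2, 2 without wild-type nerve 5 (Il4ra and Il21r), 1 without Plekhg5-/- nerve 2 and 0 without Plekhg5-/- nerve 3. It was 3 without both nerves numbered 5. The median log2 fold change of the members, -0.098, ranged from -0.22 to 0.058 when 1 nerve was left out and was above 0 only without wild-type nerve 5. The number of signalling genes at an unadjusted p under 0.05 was 3, 6 with array weights, and 1 to 3 when 1 nerve was left out (1 without wild-type nerve 2). The cause of these shifts was not tested. The genotypes share the numbers 2 and 5. With a replicate block over them, 1 member (Il12rb1) had an unadjusted p under 0.05 and the median was -0.17. Deviations from the genotype means correlated at 0.073 across genes between the nerves numbered 2 and at 0.58 between those numbered 5, and the labels do not say what the numbers mark, so the nerves were not treated as paired.

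Signs turned for 13 of the named genes, none of them with an unadjusted p under 0.05. With the FPKM as deposited, which moves the median of all genes from 0.0065 to -0.094, Il16 was at -0.040, Il33 at -0.14 and Il34 at -0.051. With array weights, Il15ra was at 0.14, Il17b at -0.16 and Il1rn at -0.29. With a pseudocount of 0.1, Il1rn was at -0.072, and with the replicate block Il10rb was at 0.026. Without both nerves numbered 5, Il15ra was at 0.018, Il17b at -0.059, Il1rn at -0.15, Il27ra at 0.20 and Il7r at 0.18. When 1 nerve was left out, the ranges were -0.20 to 0.076 for Il10rb, -0.51 to 0.44 for Il15ra, -0.20 to 0.38 for Il16, -0.0082 to 0.31 for Il17b, -0.38 to 0.29 for Il18bp, -0.24 to 0.46 for Il1rn, -0.71 to 0.42 for Il27ra, -1.32 to 0.42 for Il2rg, -0.088 to 0.19 for Il33, -0.16 to 0.27 for Il34, -0.24 to 0.18 for Il3ra, -0.29 to 0.0052 for Il6st and -1.02 to 0.47 for Il7r. With 3 nerves a genotype and no counts, changes near 1 on the log2 scale were seldom called on simulated libraries, so differences of that size could be missed here.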
